A study of Pardosa pseudoannulata with 6 samples.

Results

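The transcripts described here are those of the GMC (glucose-methanol-choline) oxidoreductases of the wolf spider Pardosa pseudoannulata, most of them annotated as glucose dehydrogenase. They were taken from a table of 75542 assembled genes by annotation and level. A row was a candidate if it carried the N-terminal or C-terminal GMC domain of Pfam, or if its best protein hit was described as a glucose dehydrogenase or GMC oxidoreductase, which gave 52 rows. Rows with a Drosophila best hit were left out, as were rows without at least 0.5 FPKM (fragments per kilobase, scaled to library depth) in at least 3 of the 6 libraries, and 36 members remained. Members were thus chosen by annotation and selected on their FPKM in these same libraries, with results of these data already known.

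The study asked how the F-actin gene bears on the response to cadmium in this spider of farmland. It compared 3 libraries from spiders injected with double-stranded RNA against F-actin (dsFactin) with 3 from spiders injected with a negative control RNA (dsNC). Animals of both groups carried the same cadmium treatment and the same microinjection of double-stranded RNA, so no library is free of cadmium or of injection. The labels give the material as an individual and name no strain, age, sex, dose or time. Whether replicates came from separate animals is not said, and the p-values reflect only the variation among these samples, part of which may be technical.

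GMC oxidoreductases are flavoenzymes that hold FAD and oxidise alcohol groups of sugars, sterols, choline and other small molecules, passing the electrons to quinones, oxygen or other acceptors. In Drosophila, glucose dehydrogenase is known from the epidermis, where it takes part in the emergence of the adult from the pupal case, and from the reproductive ducts. Relatives in the family include ecdysone oxidase, which acts on the moulting hormone in moths, and choline dehydrogenase, the mitochondrial enzyme that starts the conversion of choline to betaine. The table gives no separate role for any of the spider transcripts, and the names used below are those of their best hits.

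The depth recovered from the steps between low FPKM values was 16.2 to 18.0 M fragments (M, 1e6) in dsFactin and 15.8 to 17.6 M in dsNC. Genes above 0 numbered 47167 to 55781 in dsFactin, lowest in replicate 3, and 57714 to 61503 in dsNC. Rows with a Drosophila best hit held 0.0219 to 0.0374% of FPKM in dsFactin and 0.0672 to 1.19% in dsNC, highest in dsNC replicate 3. The labels do not say which actin the injected RNA matched. None of 9 transcripts annotated as an actin passed the test in limma (lowest adjusted p = 0.0675), and their log2 differences ran from -1.26 to 0.15. dsFactin lay wholly below dsNC in 3 of the 9 and wholly above in 2, beside 21.5% and 5.98% of genes tested. Their summed level was 8672, 9619 and 11880 FPKM in dsFactin, against 12874, 14840 and 14098 FPKM in dsNC.

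Of the 36 members, 20 carried both GMC domains, 9 only the N-terminal one and 6 only the C-terminal one. Cluster-8110.17667 entered by description alone. Members with both domains had a median length of 2235 bases, against 581 bases for the other 16, and whether the shorter ones are pieces of longer transcripts was not tested. The family label held for 33 members, whose best hit in NR or Swiss-Prot names a glucose dehydrogenase, a choline dehydrogenase or a GMC-type oxidoreductase. The other 3 rest on a Pfam domain only: Cluster-8110.52516 has DNA primase large subunit as its best hit, Cluster-8110.26694 a hypothetical protein, and Cluster-8110.43483 none. A single protein of the velvet spider Stegodyphus dumicola, glucose dehydrogenase [FAD, quinone]-like, was the best hit of 12 members, and no other protein was that of more than 3. Transcripts with a common hit may share sequence, and it is not stated how fragments that match several of them were assigned, which leaves the values of single members uncertain.

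As a family, GMC transcripts were less abundant in dsFactin. Their summed level was 234, 315 and 302 FPKM in dsFactin replicates 1 to 3, against 810, 735 and 400 FPKM in dsNC replicates 1 to 3. Every dsFactin sum was under every dsNC sum, and dsNC replicate 3 lay nearest to dsFactin. The means were 284 ± 43.4 FPKM in dsFactin and 648 ± 218 FPKM in dsNC (SD, n = 3 each), a log2 ratio of -1.19, or -0.83 after rescaling by median ratios. Without Cluster-8110.34858 and Cluster-8110.34722, the most abundant members, the sums still did not overlap, at 150, 223 and 161 FPKM in dsFactin and 358, 355 and 286 FPKM in dsNC. Part of the gap in these sums is built into the choice, since 8 members met the level filter through dsNC alone. Over all 49 candidate rows without a Drosophila best hit, with no level filter, the sums were 236, 320 and 367 FPKM in dsFactin. In dsNC they were 825, 751 and 404 FPKM, so the groups came closer without overlapping. In material from whole individuals, fewer cells of a type and less RNA per cell cannot be told apart.

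**Figure D1:**
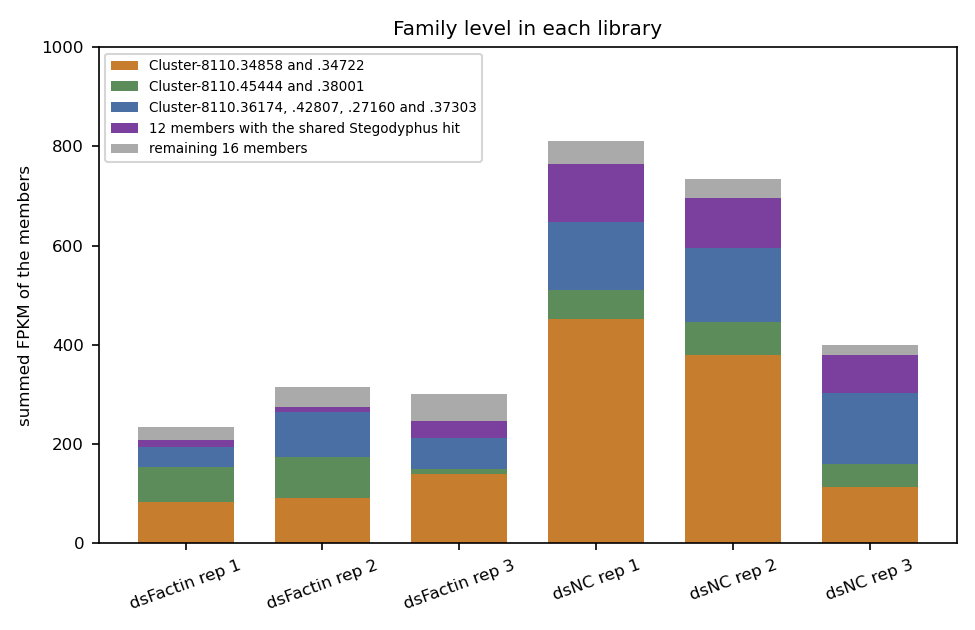
Summed FPKM of the 36 members (y axis) in each of the 6 libraries, 1 bar per library, split into 5 sets of members by colour. Bars reach 234 to 315 FPKM in dsFactin and 400 to 810 FPKM in dsNC. The 12 members with the shared Stegodyphus hit, all of which met the level filter, make up 10.2 to 34.3 FPKM in dsFactin and 75.8 to 118 FPKM in dsNC.

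The clearest members were glucose dehydrogenase transcripts present in dsNC and nearly absent in dsFactin. In limma, on log2(FPKM + 1) with Benjamini-Hochberg adjustment over all 53182 genes tested, 5 members fell and 0 rose at an adjusted p under 0.05. Over all genes tested, 0.419% passed as lower and 0.0771% as higher. All 5 met the level filter through dsNC alone. In all 8 of the 36 members did so, beside 4.11% of genes tested, and 0 did so through dsFactin alone, beside 0.694%. For such genes a difference is built into the choice, and of the 2184 genes tested that met the filter through dsNC alone, 4.49% passed as lower.

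Cluster-8110.33330, a glucose dehydrogenase [FAD, quinone]-like transcript of 3821 bases with both domains, was at 0.02, 0 and 0.02 FPKM in dsFactin, against 38.9, 30.7 and 21.2 FPKM in dsNC. In recovered fragments this is 1, 0 and 1 in dsFactin and 2151, 1764 and 1315 in dsNC. Its log2 difference was -4.91 ± 0.24 (SE, adjusted p = 0.00197, limma), a value that depends on the added 1 and was -10.5 with 0.01 added. Cluster-8110.36297, of 2823 bases and with the same best hit, was at 0, 0.05 and 0 FPKM in dsFactin, against 23.8, 22.6 and 14.3 FPKM in dsNC. Its log2 difference was -4.35 ± 0.24 (adjusted p = 0.00269, limma). For both transcripts the dsFactin libraries stood at or next to 0 while every dsNC library held many fragments, and dsNC replicate 3 was the lowest of its group. Both calls held with each library left out in turn (adjusted p from 0.00654 to 0.0360).

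The remaining transcripts that fell were at lower levels. Cluster-8110.45624, again with the shared Stegodyphus hit, was at 0.340, 0.130 and 0.0900 FPKM in dsFactin, against 8.68, 6.0 and 5.17 FPKM in dsNC (log2 -2.66 ± 0.25, SE, adjusted p = 0.0237, limma). Cluster-8110.17567, the fourth with that hit, was at 0.250, 0.02 and 0 FPKM in dsFactin, against 3.43, 5.76 and 4.25 FPKM in dsNC (log2 -2.32 ± 0.25, adjusted p = 0.0355, limma). Cluster-8110.30950 is annotated instead as a choline dehydrogenase and carries only the C-terminal domain. It was at 0.110, 0.180 and 0 FPKM in dsFactin, against 7.78, 5.62 and 4.33 FPKM in dsNC (log2 -2.63 ± 0.26, adjusted p = 0.0277, limma). No dsFactin library of these 3 transcripts came near a dsNC library. Their calls needed nearly all the libraries. The adjusted p of the 3 ran from 0.0869 to 0.112 without dsFactin replicate 1, from 0.0612 to 0.0725 without dsFactin replicate 3, from 0.115 to 0.126 without dsNC replicate 1, from 0.147 to 0.149 without dsNC replicate 2 and from 0.0578 to 0.105 without dsNC replicate 3. In those 5 fits only Cluster-8110.33330 and Cluster-8110.36297 passed. Without dsFactin replicate 2 the count of members that fell was 7, in a fit where 1297 of all genes tested passed, beside 264 with every library.

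**Figure D2:**
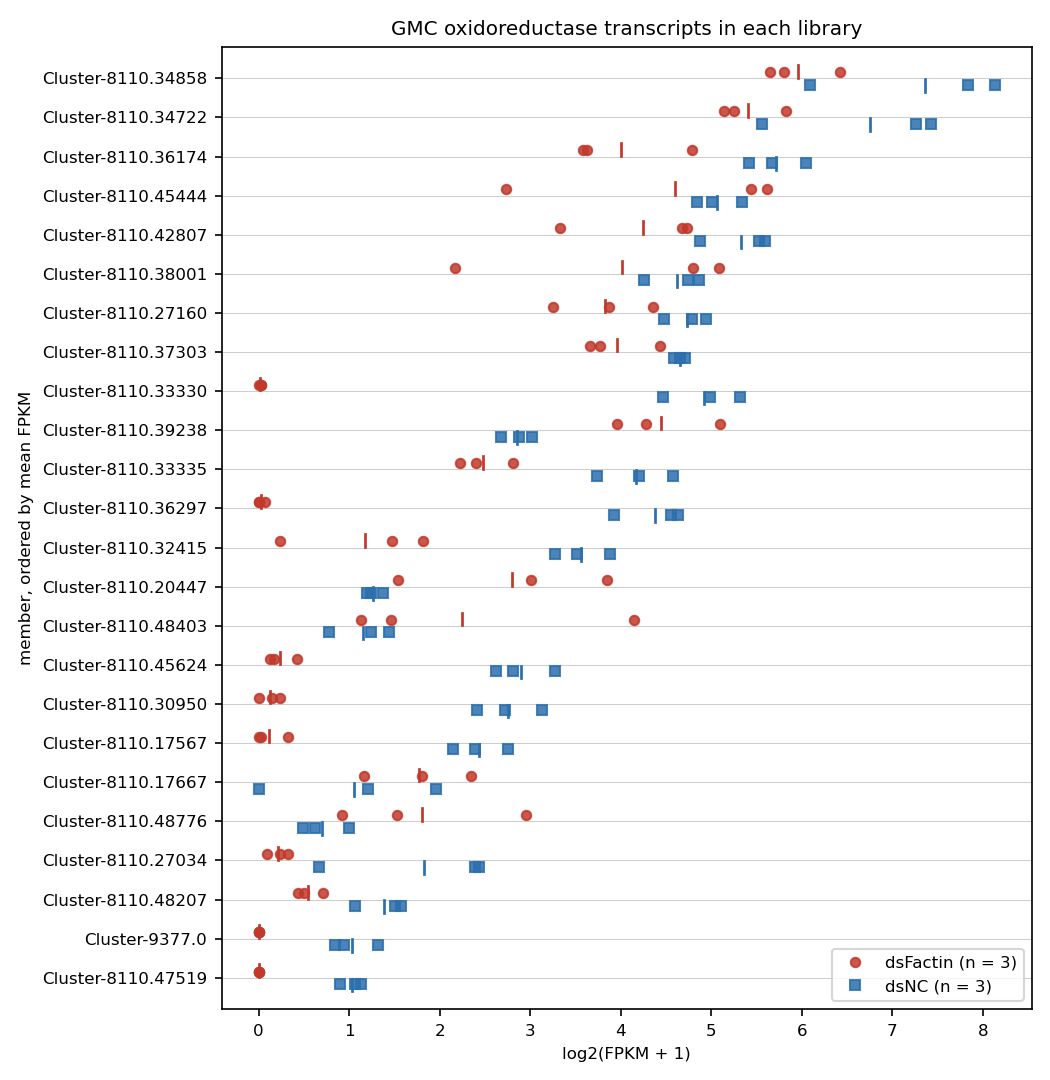
Level of 24 members in each library as log2(FPKM + 1) (x axis), members down the page by mean FPKM, with red circles for dsFactin and blue squares for dsNC (n = 3 each) and a short bar at each group's mean. Circles of Cluster-8110.33330 and Cluster-8110.36297 lie at or next to 0 while their squares lie between 14.3 and 38.9 FPKM, and the circles of Cluster-8110.39238 lie above its squares.

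Among the 12 members with the shared Stegodyphus hit, 4 fell and 8 had negative differences, with a median log2 difference of -1.65, beside -0.27 over all genes tested. Over all genes tested, 0.419% passed as lower and 71.6% had negative differences, so the share of negative members was not above that of all genes. Of the 12, 5 met the level filter through dsNC alone, the 4 that fell among them, so these counts and the median are partly set by the choice. Over all 17 rows with this hit, without the filter, the median was -0.94. Cluster-8110.33335 was at 4.29, 3.69 and 6.04 FPKM in dsFactin, against 22.8, 17.4 and 12.4 FPKM in dsNC (log2 -1.69 ± 0.27, SE, adjusted p = 0.0613, limma). Its groups did not overlap, yet unlike the transcripts above it kept several FPKM in every dsFactin library. Cluster-8110.32415 was at 2.51, 1.78 and 0.180 FPKM in dsFactin, against 8.69, 10.4 and 13.8 FPKM in dsNC (log2 -2.38 ± 0.43, adjusted p = 0.0733, limma). Here dsFactin replicate 3 was lowest and dsNC replicate 3 highest.

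Other low members with this hit had values below dsNC too. Cluster-8110.27034 was at 0.0700, 0.250 and 0.180 FPKM in dsFactin, against 4.25, 4.42 and 0.590 FPKM in dsNC (log2 -1.61 ± 0.50, SE, adjusted p = 0.168, limma), with dsNC replicate 3 close to the dsFactin libraries. Cluster-8110.48207 was at 0.350, 0.420 and 0.640 FPKM in dsFactin, against 1.10, 1.85 and 1.98 FPKM in dsNC (log2 -0.83 ± 0.25, adjusted p = 0.152, limma). The 4 positive members of the set were Cluster-8110.48403, Cluster-8110.48776, Cluster-8110.17667 and Cluster-8110.51614, none of them past the test. Cluster-8110.17667, a piece of 345 bases, was at 4.10, 1.25 and 2.5 FPKM in dsFactin, against 2.90, 1.31 and 0 FPKM in dsNC, with overlapping groups. Those values rest on only 5, 1 and 2 recovered fragments in dsFactin and 2, 1 and 0 in dsNC. Summed over the 12, the level was 15.8, 10.2 and 34.3 FPKM in dsFactin, against 118, 102 and 75.8 FPKM in dsNC. Over all 17 rows with this hit it was 16.8, 12.3 and 96.2 FPKM in dsFactin, against 125, 106 and 76.8 FPKM in dsNC. The groups then overlapped, since Cluster-8110.48101, under the filter, was at 61.9 FPKM in dsFactin replicate 3.

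The most abundant members differed by less, or with more spread. Cluster-8110.34858, of 1536 bases with both domains, was at 49.4, 55.1 and 84.7 FPKM in dsFactin, against 280, 228 and 67.4 FPKM in dsNC. Cluster-8110.34722, of 1076 bases with the N-terminal domain, was at 34.4, 37.1 and 55.7 FPKM in dsFactin, against 172, 152 and 46.4 FPKM in dsNC. In both, dsNC replicate 3 fell inside the range of dsFactin while the other dsNC libraries stood far above it. The log2 differences were -1.40 ± 0.54 for Cluster-8110.34858 (SE, adjusted p = 0.237, limma) and -1.34 ± 0.51 for Cluster-8110.34722 (adjusted p = 0.226, limma). Together they held 29.3 to 46.5% of the family's FPKM in dsFactin and 28.5 to 55.8% in dsNC.

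The ratio of these transcripts to each other hardly moved. Cluster-8110.34858 stood at 1.43, 1.49 and 1.52 times Cluster-8110.34722 in dsFactin, and at 1.64, 1.5 and 1.45 times in dsNC. Of the 55 pairs among 11 members with at least 1 FPKM in every library, this pair had the smallest SD of the log2 ratio over the 6 libraries, 0.0668, beside a median of 1.21. Next came Cluster-8110.45444 and Cluster-8110.38001, with a ratio of 1.58, 1.46 and 1.62 in dsFactin and 1.11, 1.52 and 1.53 in dsNC. These pairs were singled out after their values were seen, and it was not tested whether a pair comes from a single gene.

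Cluster-8110.38001, of 1949 bases with both domains, was at 26.8, 33.0 and 3.50 FPKM in dsFactin, against 28.1, 25.8 and 18.1 FPKM in dsNC. Cluster-8110.45444, a piece of 412 bases with the C-terminal domain, was at 42.4, 48.2 and 5.66 FPKM in dsFactin, against 31.1, 39.4 and 27.6 FPKM in dsNC. Only dsFactin replicate 3 was low in both, and the other dsFactin libraries lay within or above the dsNC range. The log2 differences of -0.60 ± 0.76 for Cluster-8110.38001 (SE, adjusted p = 0.685, limma) and -0.46 ± 0.75 for Cluster-8110.45444 (adjusted p = 0.758, limma) turned to 0.32 and 0.47 without that library.

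**Figure D3:**
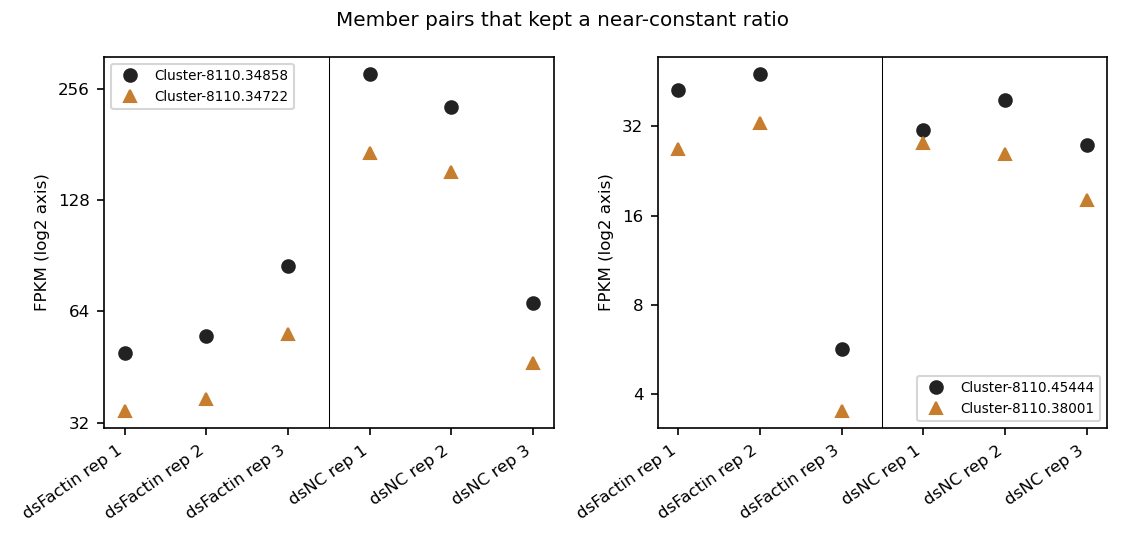
FPKM on a log2 axis (y) in each library (x, dsFactin left of the line, dsNC right of it) for Cluster-8110.34858 with Cluster-8110.34722 (left) and Cluster-8110.45444 with Cluster-8110.38001 (right). The symbols of a pair keep their distance, with ratios of 1.43 to 1.64 on the left and 1.11 to 1.62 on the right, while dsNC replicate 3 is low on the left and dsFactin replicate 3 on the right.

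Further abundant glucose dehydrogenase transcripts had lower values in dsFactin without passing the test. Cluster-8110.36174, of 1897 bases with both domains, was at 11.0, 26.7 and 11.4 FPKM in dsFactin, against 41.8, 49.9 and 65.1 FPKM in dsNC (log2 -1.71 ± 0.36, SE, adjusted p = 0.0887, limma). Its groups stood apart, and it passed without dsFactin replicate 2 (adjusted p = 0.0226, limma). In that fit 1297 of all genes tested passed, beside 264 with every library. With any other library left out Cluster-8110.36174 did not pass (adjusted p from 0.197 to 0.255, limma). Cluster-8110.42807 was at 9.03, 24.6 and 25.6 FPKM in dsFactin, against 47.4, 45.1 and 28.4 FPKM in dsNC (log2 -1.09 ± 0.42, adjusted p = 0.233, limma), and its groups nearly met.

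Cluster-8110.27160 was at 8.56, 19.6 and 13.7 FPKM in dsFactin, against 21.2, 29.7 and 26.6 FPKM in dsNC (log2 -0.90 ± 0.30, SE, adjusted p = 0.180, limma). Cluster-8110.37303 was at 11.6, 20.6 and 12.7 FPKM in dsFactin, against 25.2, 24.2 and 23.1 FPKM in dsNC (log2 -0.70 ± 0.22, adjusted p = 0.172, limma). It passed without dsFactin replicate 2 (adjusted p = 0.0430, limma), but not with any other library left out (adjusted p from 0.260 to 0.390, limma). Neither overlapped between groups, but in both dsFactin replicate 2 came close to the dsNC libraries. The same library was also the highest of its group for Cluster-8110.36174.

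A few members stood higher in dsFactin. Cluster-8110.39238, whose best hit is glucose dehydrogenase [FAD, quinone]-like of the orb weaver Argiope bruennichi, was at 14.6, 18.4 and 33.2 FPKM in dsFactin, against 6.36, 7.14 and 5.38 FPKM in dsNC. All 3 dsFactin libraries were above all 3 dsNC libraries, and the log2 difference was 1.59 ± 0.30 (SE, adjusted p = 0.0784, limma). It passed where only genes with a mean of at least 5 FPKM were tested (adjusted p = 0.0473, limma) and with voom on recovered fragments (adjusted p = 0.0435). Cluster-8110.20447 was at 1.91, 7.08 and 13.4 FPKM in dsFactin, against 1.59, 1.36 and 1.29 FPKM in dsNC (log2 1.53 ± 0.56, adjusted p = 0.213, limma), and did not overlap either.

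Much of the higher level came from a single library. Cluster-8110.48403 was at 1.20, 1.75 and 16.8 FPKM in dsFactin, against 1.71, 0.710 and 1.36 FPKM in dsNC (log2 1.10 ± 0.79, SE, adjusted p = 0.490, limma), and without dsFactin replicate 3 the log2 difference was 0.15. Cluster-8110.48776 was at 1.89, 0.900 and 6.74 FPKM in dsFactin, against 1.0, 0.410 and 0.540 FPKM in dsNC (log2 1.10 ± 0.53, adjusted p = 0.318, limma). Cluster-8110.48101 has the same Stegodyphus hit as these but missed the level filter, since only 2 libraries reached it. It was at 1.01, 0.0300 and 61.9 FPKM in dsFactin, against 0.150, 0.0800 and 0.0300 FPKM in dsNC. In these 5 transcripts dsFactin replicate 3 was the highest of all 6 libraries. That library also held the fewest genes above 0 and was the lowest of all for Cluster-8110.45444, Cluster-8110.38001 and Cluster-8110.32415, and its part in these values was not tested.

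The remaining members were low or varied within groups. Cluster-8375.0 is a piece of 352 bases whose best Swiss-Prot hit is an ecdysone oxidase of the silk moth, and is named here after its values were seen. It was at 0, 2.25 and 0 FPKM in dsFactin, against 14.2, 8.23 and 0 FPKM in dsNC (log2 -1.81 ± 1.07, SE, adjusted p = 0.409, limma). These values rest on only 0, 2 and 0 recovered fragments in dsFactin and 9, 6 and 0 in dsNC. Short pieces with an N-terminal domain, Cluster-9377.0 and Cluster-8110.47519, had 0 FPKM in each of the 3 dsFactin libraries, and stood at 0.790 to 1.49 FPKM and 0.860 to 1.20 FPKM in dsNC (log2 -1.03 for both, adjusted p = 0.0895 and 0.0784, limma). In recovered fragments the dsNC values are only 3, 2 and 2 for Cluster-9377.0 and 1, 1 and 1 for Cluster-8110.47519, too few to tell absence from low depth. Across the 12 members not taken up by the naming rule, log2 differences ran from -1.81 to 0.44, 8 were negative and 11 overlapped between groups. Over all genes tested 71.6% were negative. The overlap is largely set by the rule, which takes up members whose groups stand apart at an unadjusted p under 0.05.

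The level filter left out 13 further rows without a Drosophila best hit, and 6 of them were listed at 0 in all 3 dsFactin libraries while present in dsNC. None of the 49 family rows was listed at 0 in all 3 dsNC libraries. The share of all genes at 0 in a whole group was not counted, and every dsFactin library held fewer genes above 0 than any dsNC library. These counts are therefore not read as a trait of the family. Some of the rows rest on few fragments, such as 1, 3 and 0 recovered in dsNC for Cluster-8110.47133. Tested without a filter over 74652 genes, 5 of the 49 rows passed as lower (10.2%) and 0 as higher in limma, beside 0.139% and 0.0174% of all genes, and the 5 were those named above. dsFactin lay wholly below dsNC in 21 of the 49 (42.9%), beside 17.1% of all genes, and wholly above in 2 (4.08%), beside 4.53%. Just inside the filter were Cluster-3894.1 and Cluster-8110.27034, whose third-highest library had 0.570 and 0.590 FPKM, and just outside it Cluster-8110.30385 and Cluster-8110.51504, with 0.470 and 0.450 FPKM. The 3 GMC rows with a Drosophila best hit summed to 0, 0 and 0 FPKM in dsFactin, against 0.210, 0.660 and 11.4 FPKM in dsNC, where replicate 3 also held the most RNA of Drosophila hits overall.

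**Figure D4:**
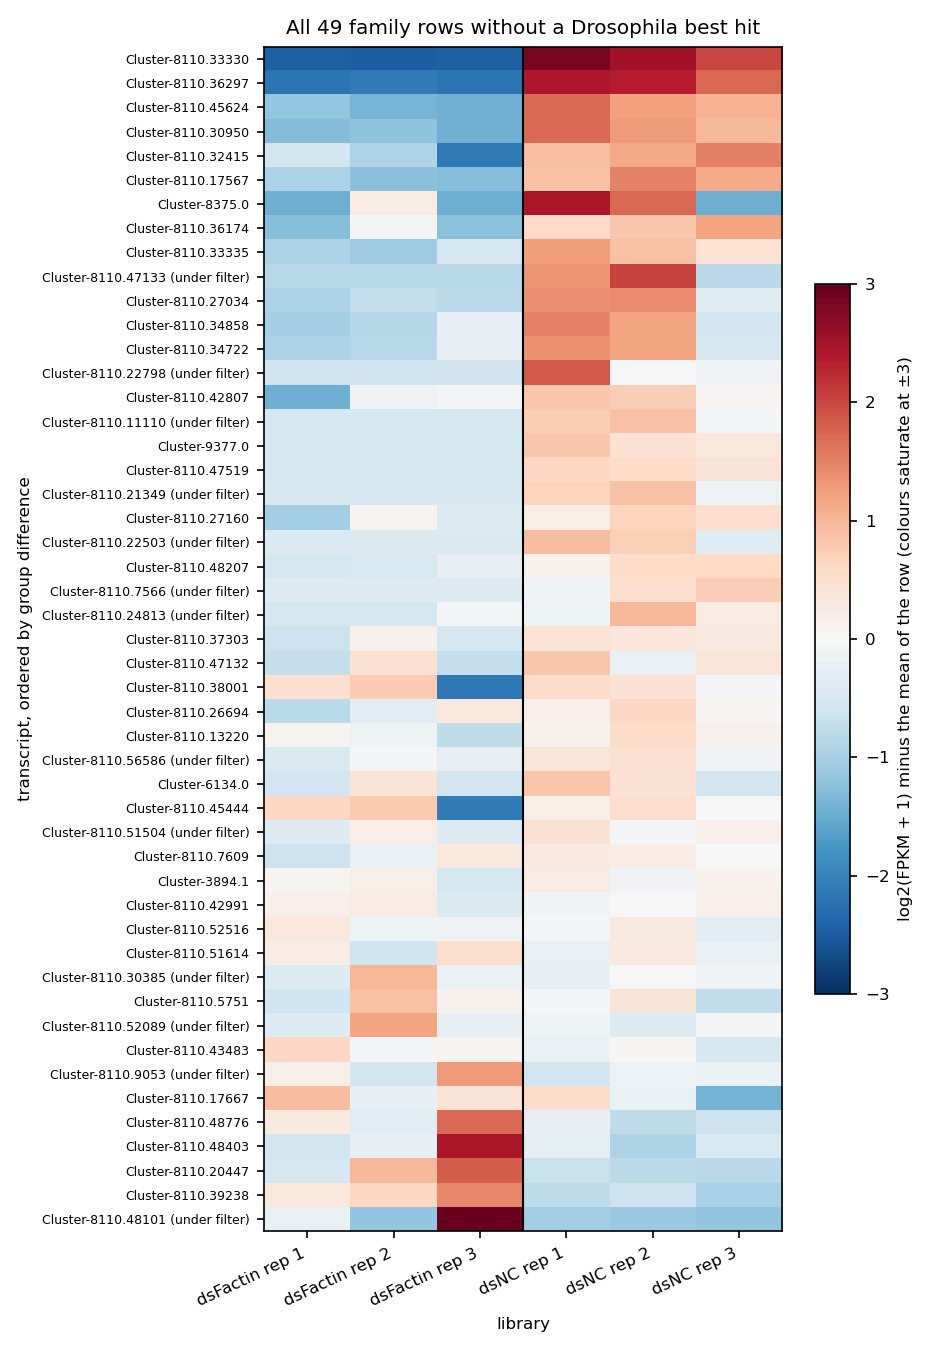
Each family row without a Drosophila best hit (49 rows, y axis, ordered by group difference) in each library (x axis), coloured by log2(FPKM + 1) minus the mean of the row, red above and blue below it. Rows at the top are blue in all 3 dsFactin libraries, and the last 5 rows are darkest red in dsFactin replicate 3, where Cluster-8110.48101 reached 61.9 FPKM.

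Over the 36 members as a whole, 27 log2 differences were negative and 9 positive, with a median of -0.67 beside -0.27 over all genes tested, of which 71.6% were negative. With 8 members chosen through dsNC alone, this median describes the set and tests nothing. Rescaling by median ratios moved the median of all genes to -0.09 and quantile normalization moved it to 0.01. Relative to all genes, the members' median was -0.40 as deposited, -0.38 with median ratios and -0.51 with quantiles, with 26 and 24 of the 36 negative under the rescalings. dsFactin lay wholly below dsNC in 16 members (44.4%), beside 21.5% of genes tested, and wholly above in 2 (5.56%), beside 5.98%. At an unadjusted p under 0.05 in limma there were 17 members lower and 2 higher, where 14.8% and 4.53% of all genes reached it. The 8 members chosen through dsNC alone are all among the 16 and the 17, so both counts are partly set by the choice. Among the other 28 members, dsFactin lay wholly below dsNC in 8 (28.6%), and 9 were lower at an unadjusted p under 0.05 (limma). The shares over all genes still include genes that met the filter through dsNC alone, so they are not a like background for these 28.

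**Figure D5:**
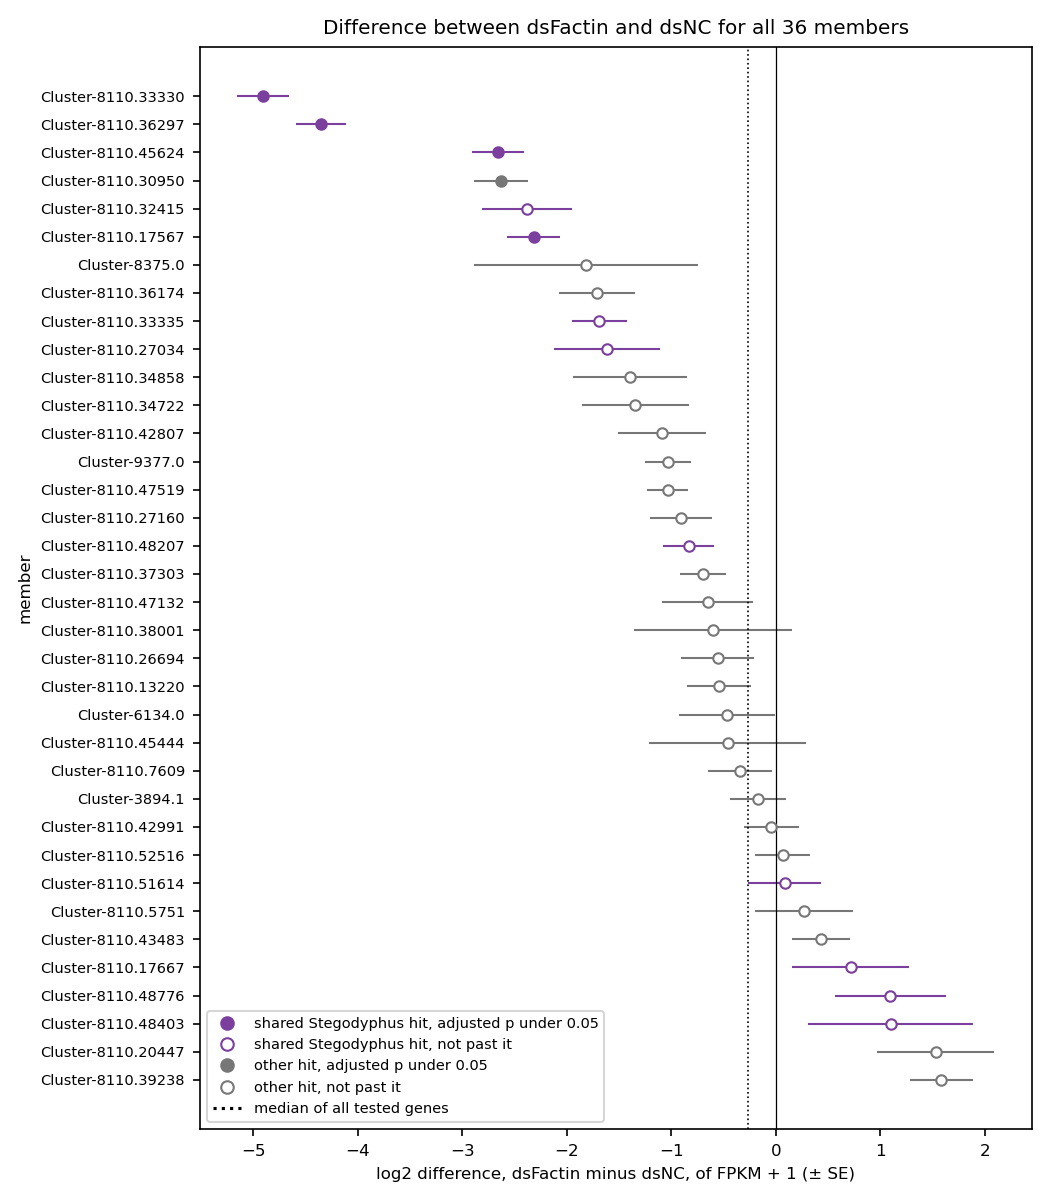
Log2 difference of FPKM + 1, dsFactin minus dsNC, with its SE (x axis) for each of the 36 members (y axis). Purple marks the shared Stegodyphus hit, filled symbols an adjusted p under 0.05 in limma, and the dotted line the median of all genes tested, -0.27. The 5 filled symbols lie between -4.91 and -2.32, and 9 members lie to the right of 0.

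Genes of related reactions were taken by annotation, and over all genes tested 0.419% passed as lower and 0.0771% as higher. At an unadjusted p under 0.05 (limma) the shares over all genes tested were 14.8% lower and 4.53% higher. Of 95 tested genes with other flavin-binding domains, 0 passed in limma and 11 were lower and 13 higher at an unadjusted p under 0.05, with a median log2 difference of -0.03. Of 18 genes of choline and betaine metabolism 0 passed, with 3 lower and 1 higher at an unadjusted p under 0.05 (limma). Among 6 tested genes with a domain of copper oxidases, haem peroxidases or catalase 1 fell, a hephaestin-like transcript (Cluster-8110.34927), hephaestin being a copper enzyme that oxidises iron in mammals. One of the 6, Cluster-8110.17171, has serum response factor-binding protein 1 as its best hit. Cluster-8110.34927 was at 2.06, 3.12 and 1.39 FPKM in dsFactin, against 12.6, 12.4 and 9.48 FPKM in dsNC (log2 -2.00 ± 0.25, SE, adjusted p = 0.0412, limma). A more abundant hephaestin-like transcript, Cluster-8110.37299, was at 89.7, 21.6 and 3.53 FPKM in dsFactin, against 14.8, 10.6 and 15.7 FPKM in dsNC (log2 0.53 ± 1.0, SE, adjusted p = 0.793, limma). Its dsFactin libraries lay on both sides of dsNC. Catalase (Cluster-8110.35141), which breaks down hydrogen peroxide, was at 982 ± 278 FPKM in dsFactin and 952 ± 67.6 FPKM in dsNC (SD, n = 3).

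Of 9 enzymes that make or use free glucose and polyols, 0 rose and 1 fell. The one that fell is a hexokinase, which traps glucose as its phosphate. Cluster-8110.32912 was at 38.4, 47.9 and 39.5 FPKM in dsFactin, against 82.3, 80.4 and 80.4 FPKM in dsNC (log2 -0.94 ± 0.12, SE, adjusted p = 0.0471, limma). A more abundant hexokinase, Cluster-8110.35042, did not pass and was at 373, 329 and 377 FPKM in dsFactin, against 257, 243 and 275 FPKM in dsNC (log2 0.48 ± 0.12, adjusted p = 0.111, limma). No row carried the ecdysteroid kinase domain.

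Marker transcripts of several organs also differed between the groups, and their counts stand beside 0.419% lower and 0.0771% higher over all genes tested, or 14.8% and 4.53% at an unadjusted p under 0.05. Hemocyanin summed to 43749 to 53999 FPKM in dsFactin and 71802 to 88730 FPKM in dsNC, with 0 of 45 transcripts past the adjusted threshold in limma and 27 lower and 0 higher at an unadjusted p under 0.05. Muscle markers (troponin, myosin heavy chain and titin) summed to 3280 to 4006 FPKM in dsFactin and 6969 to 8306 FPKM in dsNC, with 3 of 57 lower and 0 higher in limma. Cuticle proteins, marking the epidermis, summed to 8615 to 29607 FPKM in dsFactin and 29603 to 34983 FPKM in dsNC, with 20 of 181 lower and 0 higher, and dsFactin replicate 3 reached the dsNC range. Vitellogenin summed to 14142 to 25289 FPKM in dsFactin and 9795 to 14030 FPKM in dsNC, with 1 of 22 lower and 1 higher. Sums of silk gland, venom gland, gut, nerve and sperm markers overlapped between groups, and no list was at 0 in any library. Of these, venom gland markers had 4 lower and 2 higher of 157 in limma, and gut markers 2 lower and 0 higher of 41. For silk gland (38 tested), nerve (28) and sperm (7) markers 0 passed in limma, with 1 lower and 4 higher, 7 lower and 1 higher, and 0 in either direction at an unadjusted p under 0.05. The part of these organs in the GMC values was not tested.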

How the data were processed

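Per the labels' protocols, total RNA came from a Qiagen column kit, and SMARTER chemistry was used for the libraries. The authors deposited 1 table of FPKM values with 2 decimals and a gene length in bases. No source used here names the assembler, aligner or counting tool. The submitters' processing notes name mm10, a mouse build, whereas the genes are numbered clusters without coordinates, so no positions are given. Columns were matched to libraries by name and groups were taken from the sample titles.

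Depth and fragments were recovered from the whole-number steps of low FPKM values in genes of 600 to 900 bases, where 99.5 to 99.9% of values lay within 0.1 of a whole number. A count of 3 fragments over 1000 bases corresponds to 0.233 to 0.277 FPKM. Precision covers counting error only.

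The 53182 genes reaching 0.5 FPKM in 3 or more libraries entered a two-sided limma test (limma 3.58.1, R 4.3.3) of log2(FPKM + 1), using an intensity trend, and p-values were adjusted over all of them by Benjamini-Hochberg. Fold changes are on that scale and understate the change of low genes. On simulated data for dsFactin against dsNC (53182 genes), 16% of 100 genes altered 2-fold were recovered, and 78% of 100 altered 8-fold. There were 4 false calls. Only genes averaging 5 FPKM or more were altered, a level that 13 of the 36 members reached. Cluster-8110.45624, Cluster-8110.30950 and Cluster-8110.17567, which fell, lay under it. Recovery at lower levels was not tested, so these shares do not apply to members below that level. With 3 libraries against 3 an exact permutation test could not go below 0.1, so none was run.

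Members and lists were chosen with earlier results of these data known. Members were named in full if their mean was at least 10 FPKM, if they passed, if the groups did not overlap at an unadjusted p under 0.05, or if they were among the 5 most positive or 5 most negative with a mean of at least 1 FPKM. For the lists of other enzymes, up to 2 members per direction with the lowest adjusted p were eligible. The settings varied were the pseudocount (0.1 and 0.01), no filter, a mean of at least 5 FPKM, median-ratio rescaling, quantile normalization, no trend, array weights, voom, the replicate block, leaving out each library, keeping Drosophila hits, and Pfam members only.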

Additional observations from a re-analysis of the deposited data

How the results depend on the processing

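The count of all genes that passed, 264, was 114 with pseudocount 0.01, 117 with no filter, 781 at a mean of at least 5 FPKM, 115 with median-ratio rescaling, 174 with no trend, 702 with array weights, 1134 with voom and 33 to 1297 with 1 library left out. The higher share of these calls was 15.5%, 27.6% with quantile normalization (67 higher, 176 lower), 31.5% at a mean of at least 5 FPKM, and 5.19% (without dsNC replicate 3) to 27.6% (without dsFactin replicate 3) with 1 library left out. The 5 members that fell were 3 with pseudocount 0.01, 8 with voom and 2 to 7 with 1 library left out, and 5 with rescaling, quantile normalization, no trend, no filter or pseudocount 0.1. The count of members that rose, 0, was 1 at a mean of at least 5 FPKM and 1 with voom. The members' median of -0.67 was -1.10 with pseudocount 0.1, -1.28 with pseudocount 0.01, -1.34 at a mean of at least 5 FPKM (13 members), -1.12 with voom and -1.0 to -0.64 with 1 library left out. The cause was not tested. The labels do not say whether replicate numbers pair the samples. Deviations of same-numbered libraries correlated at 0.0994, -0.108 and -0.153, and those of differently numbered ones at -0.140 to 0.229. With 3 libraries per group these values cannot decide whether samples were paired. With the replicate block 17 genes and 0 members passed. Of 373 refits of the 24 named members, 339 kept direction and call, 22 lost the call, 10 gained it and 2 turned round. Only 5 of the 24 passed in the main fit, and for the others staying uncalled counted as kept. All 22 losses were of those 5. Cluster-8110.33330 and Cluster-8110.36297 each passed in 15 of 16 refits, Cluster-8110.45624 in 9 of 15, and Cluster-8110.17567 and Cluster-8110.30950 each in 8 of 15. Both turns came without dsFactin replicate 3. With 1 library left out, Cluster-8110.38001 ran from -1.14 to 0.32 and Cluster-8110.45444 from -0.97 to 0.47. Depth limits short members as well as those under 1 FPKM, since both can rest on few fragments.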
